A study of Callithrix jacchus with 5 samples.

Results

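The 10 genes described here, PAX3, PAX6, TFAP2A, MSX1, NES, ZIC2, PMEL, S100B, ERBB3 and EDNRB, are known for roles in the neural plate, its border, the neural crest or cells that the crest forms. They were given as a list of symbols. Each of the 10 matched 1 Ensembl gene identifier among the 30811 in the count table. Transcripts were counted by RNA sequencing in 5 libraries of cultured common marmoset (Callithrix jacchus) cells. The libraries comprise 1 of fibroblasts (E01F, with a P number of 1 in its title), 3 of embryonic stem (ES) cells and 1 of induced pluripotent stem (iPS) cells. The ES libraries come from lines named No40, DSY127 and No20, called ES lines 1, 2 and 3 here, with P numbers of 63, 17 and 45. The iPS cells were made from fibroblasts by RNA-based reprogramming, per the series title. No source used here gives the reprogramming factors, the parent cells of the iPS library, or the age and sex of the donors.

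Total counts were 58601185 in the fibroblast library, 34111715 to 46523012 in the ES lines and 5746449 in the iPS library. CPM stands for reads scaled to a common library total with TMM factors, and 3 counts equal 0.063 CPM in fibroblasts, 0.061 to 0.083 CPM across the ES lines and 0.507 CPM in iPS cells. The labels were checked against defining markers. In fibroblasts all 7 measured pluripotency genes fell, and their summed level was 3.26 CPM there, 2314 to 3745 CPM across the ES lines and 3115 CPM in iPS cells. Of 13 fibroblast genes 12 rose in the fibroblast library, and their summed level was 85091 CPM there, 1680 to 2856 CPM across the ES lines and 11468 CPM in iPS cells. Only the ES group is replicated. Every test therefore assumes that the lone libraries vary like an ES line, and its p-value measures the spread between these 3 lines. In bulk libraries a lower level cannot be told apart from fewer cells of a type.

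During development the ectoderm is divided into neural plate, epidermis and a border zone between them. Border cells express transcription factors of the PAX, ZIC, MSX and AP-2 families, and some become neural crest, a migratory population that forms melanocytes, peripheral glia, sensory neurons and facial mesenchyme. The endothelin receptor B and the neuregulin receptor ERBB3 are needed for the migration and survival of crest-derived cells. Several of these genes also act outside the crest: ZIC2 is expressed in the primed epiblast, TFAP2A in surface ectoderm, trophoblast and amnion, and MSX1 in limb and facial mesenchyme.

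By the coordinates in the count table, for which no source used here names a build, the 10 genes lie on 8 chromosomes. ZIC2 spans 15137821 to 15142495 and EDNRB 36778082 to 36801494 on the plus strand of chromosome 1, MSX1 182664086 to 182667754 on the plus strand of chromosome 3, and TFAP2A 18200831 to 18242401 on the plus strand of chromosome 4. PAX3 spans 138684601 to 138784670 on the minus strand of chromosome 6, PAX6 94947034 to 94980806 on the minus strand of chromosome 11, NES 10740665 to 10748810 on the minus strand of chromosome 18 and S100B 50404563 to 50410936 on the minus strand of chromosome 21. PMEL (44738001 to 44746460, minus strand) and ERBB3 (44819889 to 44843329, plus strand) are neighbours on chromosome 9, 73428 bases apart, with 2 other annotated genes between them. The summed exon length ran from 897 bases for MSX1 to 7359 bases for PAX6. No exon base of any of the 10 was shared with another annotated gene (0 in each case), although the span of PMEL was overlapped by DGKA and that of ERBB3 by an unnamed gene of 113 bases.

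**Figure D1:**
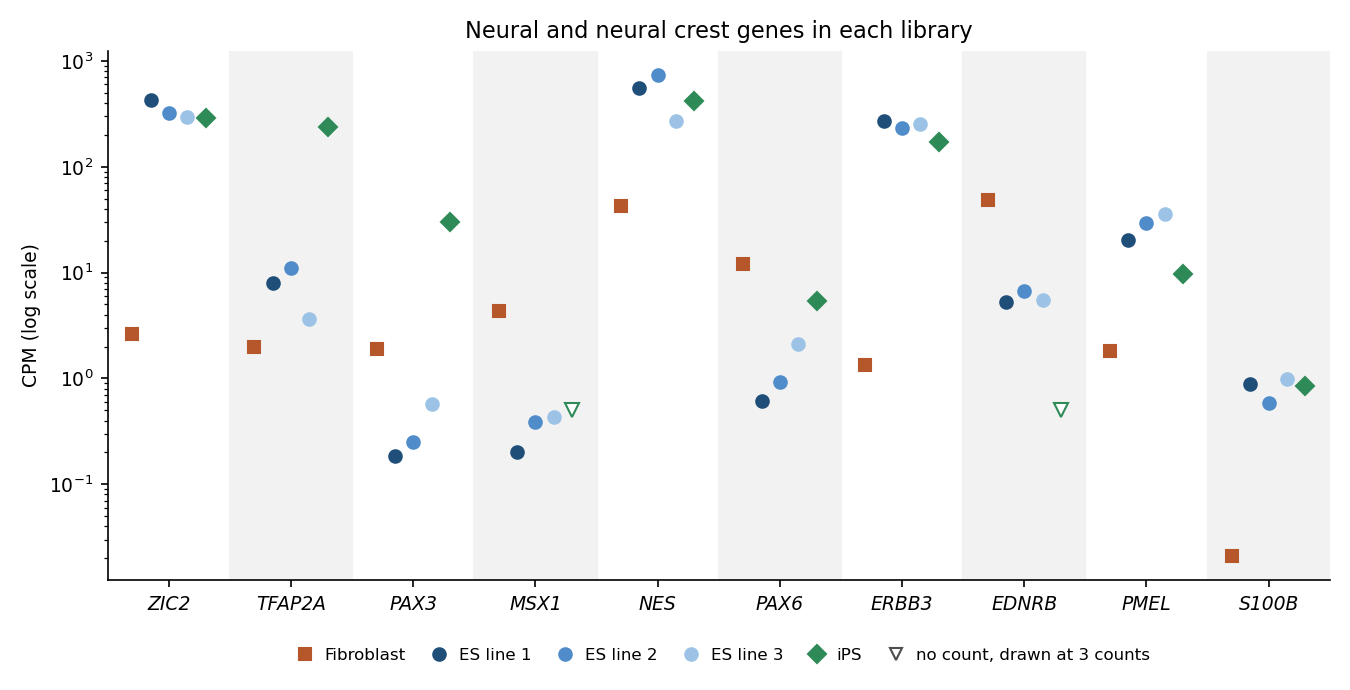
CPM of each gene in the 5 libraries on a log scale (square, fibroblast; circles, the 3 ES lines; diamond, iPS; open triangle, no count, drawn at the level of 3 counts). ZIC2, NES and ERBB3 sit above 100 CPM in every pluripotent library, TFAP2A and PAX3 are highest in the iPS library, and EDNRB and MSX1 have no count there.

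Among the plate border factors, ZIC2 was high in all pluripotent libraries and TFAP2A and PAX3 were far higher in the iPS library than in any other. ZIC2, a zinc finger factor of forebrain and plate border development, stood at 2.63 CPM in fibroblasts, 424, 324 and 296 CPM in ES lines 1, 2 and 3 and 290 CPM in iPS cells. The fibroblast value lay far below the others, and the iPS value just below the lowest ES line. ZIC2 fell in the fibroblast library against the ES lines (log2 fold change -7.05 ± 0.55 SE, edgeR quasi-likelihood adjusted p = 0.00158) and was higher in the iPS than the fibroblast library (6.79 ± 0.56, adjusted p = 0.00441). Against the ES lines its level in the iPS library differed by -0.26 ± 0.36 on the log2 scale, which did not pass (adjusted p = 0.873).

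TFAP2A, which encodes the transcription factor AP-2 alpha, stood at 1.97 CPM in fibroblasts, 7.90, 10.99 and 3.61 CPM across the ES lines and 235 CPM in iPS cells, where 1393 reads were counted (95% Poisson interval 223 to 248 CPM). The iPS library was the highest and the fibroblast library the lowest, with no overlap between the groups. The rise over the fibroblast library passed (log2 fold change 6.90 ± 0.95, edgeR adjusted p = 0.011). Against the ES lines the log2 fold change was 4.97 ± 0.56, a 31.4-fold difference, and its adjusted p of 0.0507 missed the threshold of 0.05 by little. It passed in 8 of 12 alternative fits, which gave adjusted p from 5.97e-12 to 0.32, the highest without ES line 1. The lower level in fibroblasts than in ES lines did not pass (-1.92 ± 0.69, adjusted p = 0.103), but did without ES line 3 and with DESeq2.

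PAX3, a paired-box factor of the dorsal neural tube, the crest and muscle precursors, had 90 reads in the fibroblast library, 9, 9 and 25 in the ES lines and 178 in the iPS library. These are 1.89 CPM in fibroblasts, 0.183, 0.25 and 0.572 CPM across the ES lines and 30.1 CPM in iPS cells (95% Poisson interval 25.8 to 34.8 CPM). The order was iPS, then fibroblast, then the ES lines, with no overlap between the groups. The difference between the iPS library and the ES lines was 88.9-fold (log2 fold change 6.47 ± 0.74) with edgeR adjusted p = 0.052, so it too missed the threshold, passing in 8 of 12 alternative fits (adjusted p from 1.58e-12 to 0.32, again highest without ES line 1). The fibroblast level was 2.48 ± 0.72 log2 units above the ES lines (edgeR adjusted p = 0.0572). It passed in 3 of 12 alternative fits: with no low-count filter, with DESeq2 and without ES line 3. The iPS level was 3.99 ± 1.04 above the fibroblast library (adjusted p = 0.0526, passing in 7 of 11 alternative fits, those without ES line 2 or ES line 3 among them).

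MSX1, a homeobox factor of the plate border and of facial and limb mesenchyme, was highest in fibroblasts. It had 208 reads in the fibroblast library, 10, 14 and 19 in the ES lines and 0 in the iPS library. Those counts equal 4.37 CPM in fibroblasts and 0.203, 0.389 and 0.435 CPM across the ES lines. MSX1 rose in the fibroblast library against the ES lines (log2 fold change 3.67 ± 0.79, edgeR adjusted p = 0.0231) but did not pass without ES line 1 or after thinning to the iPS depth (adjusted p = 0.146). Against the fibroblast library the iPS library was at least 8.61-fold lower, taking 3 counts as the floor (adjusted p = 0.0454). That call was lost without ES line 1, with either upper-quartile factors or total counts alone, after thinning to the iPS depth and with limma voom. At the ES mean the iPS library would have held 2.03 reads, so a fall below the ES lines was not detectable at this depth.

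Of the progenitor genes, NES was abundant in pluripotent cells and PAX6 was highest in fibroblasts. NES encodes nestin, an intermediate filament of neural stem cells that other dividing progenitors also express. It stood at 43.1 CPM in fibroblasts, 551, 741 and 270 CPM across the ES lines and 420 CPM in iPS cells, which fell inside the ES range. NES fell in the fibroblast library against the ES lines (log2 fold change -3.59 ± 0.69, edgeR adjusted p = 0.0167) and was higher in the iPS than the fibroblast library (3.29 ± 0.73, adjusted p = 0.0354). Neither passed without ES line 1 (adjusted p = 0.0611 for the fall in fibroblasts), and the iPS call was also lost with limma voom. Against ES lines the iPS level differed by -0.31 ± 0.56 (adjusted p = 0.907), and by 0.046 without ES line 2.

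PAX6, a master regulator of eye and forebrain progenitors, had 570 reads in the fibroblast library, 30, 33 and 92 in the ES lines and 32 in the shallow iPS library. The levels were 11.97 CPM in fibroblasts, 0.61, 0.918 and 2.10 CPM across the ES lines and 5.41 CPM in iPS cells (95% Poisson interval 3.70 to 7.64 CPM). The order was fibroblast, iPS, then ES, without overlap. PAX6 rose in fibroblasts against ES lines (log2 fold change 3.30 ± 0.77, edgeR adjusted p = 0.0295), a call lost without ES line 1 (adjusted p = 0.0816). The iPS level did not pass against the ES lines (2.16 ± 0.81, adjusted p = 0.519) or against the fibroblast library (-1.15 ± 1.06, adjusted p = 0.498).

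The crest receptors ERBB3 and EDNRB took opposite sides. ERBB3 encodes a neuregulin receptor that signals with ERBB2 and is best known in Schwann cell precursors. It stood at 1.34 CPM in fibroblasts, 274, 233 and 256 CPM across the ES lines and 171 CPM in iPS cells (95% Poisson interval 161 to 182 CPM). All pluripotent libraries were over 100 CPM, and the iPS library was the lowest of them. ERBB3 fell in the fibroblast library against ES lines (log2 fold change -7.56 ± 0.52, edgeR adjusted p = 0.00142) and was higher in the iPS than the fibroblast library (6.99 ± 0.52, adjusted p = 0.00441). These calls held in all 12 and all 11 alternative fits. Against the ES lines the iPS value differed by -0.57 ± 0.34 (adjusted p = 0.697).

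EDNRB, the receptor for endothelins through which endothelin 3 acts on melanoblasts and enteric crest cells, had 2298 reads in the fibroblast library, 262, 241 and 241 in the ES lines and 0 in the iPS library. Those counts correspond to 48.3 CPM in fibroblasts and 5.32, 6.70 and 5.51 CPM across the ES lines, with an upper 95% Poisson limit of 0.624 CPM in iPS cells. The libraries fell into a clear order of fibroblast, ES, iPS. EDNRB rose in the fibroblast library (log2 fold change 3.05 ± 0.44, edgeR adjusted p = 0.00677), in the main and all 12 alternative fits. The iPS library was at least 95.2-fold below the fibroblast library against a floor of 3 counts (adjusted p = 0.00669), a call lost with limma voom alone (adjusted p = 0.0607). At the ES mean the iPS library would have held 34.6 reads, so it was at least 11.5-fold below the ES lines. The bound was 10.7-fold to 12.04-fold with any ES line left out. That difference did not pass over all genes (edgeR adjusted p = 0.0776). It passed in 4 of 12 alternative fits: with DESeq2, with no low-count filter, without ES line 3 and after thinning to the iPS depth.

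The genes of differentiated crest cells, PMEL and S100B, were both lowest in the fibroblast library. PMEL encodes the fibril protein of the melanosome and stood at 1.81 CPM in fibroblasts, 20.4, 29.3 and 35.4 CPM across the ES lines and 9.64 CPM in iPS cells (95% Poisson interval 7.30 to 12.5 CPM). The iPS value lay between the fibroblast library and all ES lines. PMEL fell in the fibroblast library (log2 fold change -3.97 ± 0.64, edgeR adjusted p = 0.00959), in the main and all 12 alternative fits. The iPS library was -1.56 ± 0.56 log2 units from the ES lines (adjusted p = 0.498) and 2.41 ± 0.66 above the fibroblast library (adjusted p = 0.0584, passing in 6 of 11 alternatives, including the fit that left out ES line 3).

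S100B, a calcium-binding protein of glia and melanocytes, had few reads: 1 in the fibroblast library, 44, 21 and 43 in the ES lines and 5 in the iPS library. The iPS level of 0.845 CPM lay within the ES range of 0.584 to 0.983 CPM. The ES lines held 39.9 times the fibroblast level, with a 95% counting interval from 7.01 to 1590, and the fall passed narrowly (edgeR adjusted p = 0.0498). It was lost in 6 of 10 alternative fits, including each that left out an ES line. No difference between the iPS library and the fibroblast library (adjusted p = 0.0762) or the ES lines (adjusted p = 0.998) passed.

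In the comparison of fibroblasts with ES lines, 3 of the 10 genes rose (PAX6, MSX1 and EDNRB) and 5 fell (ZIC2, NES, ERBB3, PMEL and S100B). Of all 17462 genes tested 18.1% were called, 8.8% higher and 9.28% lower. The genes were listed with earlier results of these data known, so nothing is read from that share. Their median log2 fold change was -2.76, beside -0.15 for all genes. Without ES line 1, 4 of the 10 passed, ZIC2, ERBB3, EDNRB and PMEL, and 10.2% of all genes. DESeq2 called all 10 (28.9% of all genes) and limma voom 7 (15.4%). All 10 had an unadjusted edgeR p under 0.05, as had 34% of all genes. All 10 fibroblast values lay outside the range of the ES lines, as did 74.4% of all genes. With total counts alone the split over all genes moved from 1537 higher and 1620 lower to 1066 and 2016, and their median from -0.15 to -0.54, but no member changed its call.

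In the comparison of the iPS library with ES lines, 0 of the 10 passed the edgeR quasi-likelihood test, and 0.109% of all genes tested were called. Before adjustment 5 of 10 had p under 0.05 (TFAP2A, PAX3 and PAX6 higher, EDNRB and PMEL lower) beside 8.69% of all genes. DESeq2 called 3 (TFAP2A and PAX3 higher, EDNRB lower; 2.76% of all genes) and limma voom 0 (0.0286%). In 8 of 10 genes the iPS value lay outside the ES range, as in 58.1% of all genes, and NES and S100B lay inside it. Between the iPS and fibroblast libraries, 4 genes were higher in iPS (ZIC2, TFAP2A, NES and ERBB3) and 2 lower (MSX1 and EDNRB). Of all genes 12.7% were called, 7.69% higher and 4.99% lower. At an unadjusted p under 0.05 there were 9 members and 31.3% of all genes, and DESeq2 called 8 members and 25.3% of all genes. The members' median log2 fold change was 3.64, beside 0.03 for all genes. limma voom called 3 members there, ZIC2, TFAP2A and ERBB3, and 169 genes in all (0.968%) in place of 2213. The comparisons share libraries and are not independent of each other.

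**Figure D2:**
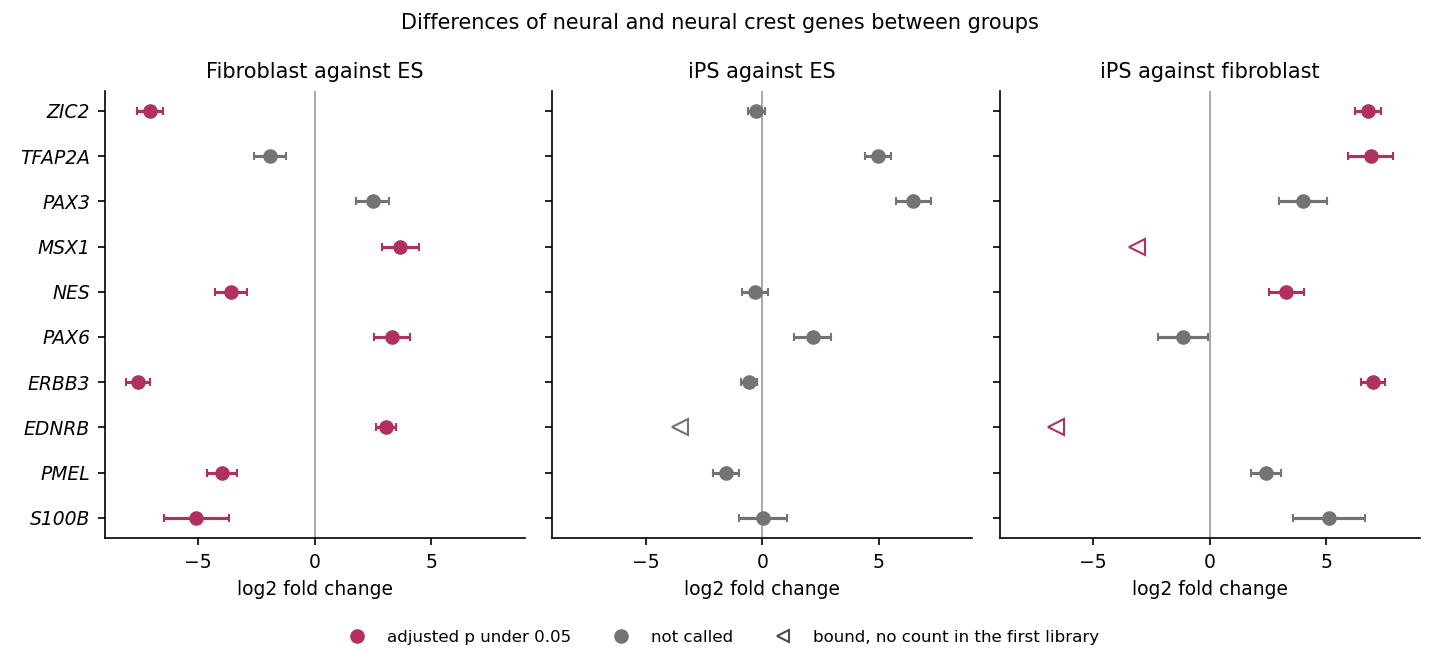
Log2 fold change ± SE of each gene in the 3 comparisons, from 1 fit over all 5 libraries (red, adjusted p under 0.05; grey, not called; open triangle, bound where the iPS library had no count). MSX1 has no mark in the middle panel because its ES level is below the iPS floor, and TFAP2A and PAX3 stand apart there at 4.97 and 6.47 without passing.

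Levels can be set beside each other between genes only per length of exon. On that scale, CPM per kb, ZIC2 and NES led in the ES lines at 130 ± 25.2 and 105 ± 47.6 (SD, n = 3), followed by ERBB3 at 47.3 ± 3.77. ZIC2, NES and ERBB3 stood above 87.2% of the tested genes in each ES line. PMEL reached 13.9 ± 3.69 CPM per kb, EDNRB 1.98 ± 0.253 and TFAP2A 1.75 ± 0.866, while S100B, MSX1, PAX6 and PAX3 stayed below 1. In the fibroblast library the order was different: EDNRB led at 16.3 CPM per kb, then NES at 8.65, MSX1 at 4.87 and PAX6 at 1.63. In the iPS library TFAP2A reached 55.1 CPM per kb, above 90.03% of the tested genes, whereas in the ES lines it stood above 23.6% to 35.9% of them. PAX3 reached 11.2 CPM per kb in iPS cells, above 62.6% of the tested genes.

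The members also differed in how evenly the ES lines expressed them. The highest ES line exceeded the lowest 1.17-fold for ERBB3, 1.26-fold for EDNRB and 1.43-fold for ZIC2. The ratio was 3.04-fold for TFAP2A, 3.13-fold for PAX3 and 3.45-fold for PAX6. Over 16842 genes with a count in every ES line the median was 1.79-fold, and 41.3% of them were at or above 2-fold. The PAX3 ratio rests on 9, 9 and 25 reads in ES lines 1, 2 and 3, so it carries counting error. ES line 3 had the highest PAX3, PAX6, MSX1, PMEL and S100B of the ES lines and the lowest TFAP2A, NES and ZIC2. ES line 2 had the highest TFAP2A, NES and EDNRB. No test was made between single ES lines.

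Related genes were read from lists that were also drawn up with earlier results known. Beside every list count that follows for fibroblasts against ES lines stand the shares of all genes tested, 8.8% higher and 9.28% lower. Those shares were 5.41% and 4.79% without ES line 1 and 12.7% and 13.8% without ES line 3. Of 12 measured plate border genes (16 listed), 2 rose and 2 fell in fibroblasts, with a median log2 fold change of -1.93 beside -0.15 for all genes. ZIC4, a ZIC gene of the hindbrain and dorsal neural tube, rose (log2 fold change 6.01 ± 0.75), from 0.136 ± 0.05 CPM to 9.09 CPM, and had no count in the iPS library, at least 17.9-fold lower than fibroblasts. TFAP2C, an AP-2 gene of trophoblast, germ cells and naive pluripotent cells, stood at 56.97 CPM in iPS cells, 55.4, 55.3 and 3.66 CPM across the ES lines and 9.93 CPM in fibroblasts. TFAP2B, another AP-2 gene of the crest, had no count in the iPS library and was at most 0.378 CPM elsewhere, so of these AP-2 genes TFAP2A had an iPS value far above all ES lines and TFAP2C an iPS value near its highest ES lines. PAX7, the sister gene of PAX3, stood at 1.01 CPM in iPS cells against 0.572 to 6.37 CPM across the ES lines, and did not pass in any comparison (adjusted p = 0.0677 for fibroblasts against ES lines). DLX5 and GBX2 had no count in the iPS library, where 3 counts equal 0.507 CPM, and GBX2 had none in fibroblasts either. Their ES values lay on both sides of that floor, at 0.137 to 1.70 CPM for DLX5 and 0.163 to 5.03 CPM for GBX2. Without ES line 3, 6 border genes fell and 3 rose in fibroblasts, and without ES line 1, 3 fell and 1 rose. DESeq2 called 5 lower and the fit with no low-count filter 4.

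Of 11 tested neural progenitor genes (14 measured, 22 listed), 5 fell in fibroblasts and PAX6 rose, with a median log2 fold change of -3.79, or -2.24 with genes lacking a count at their bound. SOX2, a factor of both pluripotent and neural progenitor cells, fell by 8.09 on the log2 scale. OTX2, a factor of the epiblast and forebrain, had no count in fibroblasts and was at least 161-fold lower than in the ES lines, where it stood at 10.2 ± 2.67 CPM. PROM1, a membrane glycoprotein of stem cells, fell as well (-3.79 ± 0.73). The eye and forebrain factors SIX3 and SIX6, which act alongside PAX6, had no count in the fibroblast or iPS libraries and at most 0.167 CPM in an ES line. Without ES line 1, 4 progenitor genes fell and 0 rose. Without ES line 3, 2 rose.

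Of 16 listed crest specifiers 6 were measured, of which 3 rose and 1 fell in fibroblasts. The defining factors SOX10 and FOXD3 were not analysed here. SNAI2, a zinc finger repressor of epithelial genes, rose from 4.74 ± 2.27 CPM across the ES lines to 177 CPM in fibroblasts (log2 fold change 5.22 ± 0.54, edgeR adjusted p = 0.00266) and stood at 1.52 CPM in iPS cells. The cadherins CDH6 (3.26 ± 0.37) and CDH11 (3.03 ± 0.74) also rose, and B3GAT1, which makes the HNK-1 carbohydrate of migrating crest, fell (-6.25 ± 1.55). The list's median log2 fold change was 1.85. Neither CDH11 nor B3GAT1 passed without ES line 1, nor CDH11 with total counts alone.

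Of 8 tested melanocyte genes (12 measured, 14 listed), EDNRB rose and PMEL and GPR143 fell in fibroblasts, with a median of -2.60, or -1.61 with bounds (DESeq2 called 4 lower). GPR143, a receptor of the melanosome membrane, had no count in fibroblasts and was at least 31.8-fold lower than in the ES lines, or 23.4-fold without ES line 2. The pigment enzymes TYR, TYRP1 and DCT were at or below 0.122 CPM in fibroblasts and every ES line, and MLANA at or below 0.189 CPM. All 4 had no count in the iPS library, where 3 counts equal 0.507 CPM. Other melanosome genes were present in ES lines, OCA2 at 7.18 to 10.8 CPM and SLC45A2 at 1.03 to 3.28 CPM, as was the receptor KIT at 8.96 to 9.74 CPM. None of OCA2, SLC45A2 and KIT passed against fibroblasts. MITF, the regulator of melanocyte genes, stood at 10.3 CPM in fibroblasts, 4.31 ± 1.05 CPM across the ES lines and 13.9 CPM in iPS cells, and did not pass. Of 11 Schwann and glial genes (14 listed), 2 rose and 4 fell in fibroblasts, with a median of -3.71, or -2.55 with bounds. GAP43 fell (-3.71 ± 0.71), and PMP22 (2.86 ± 0.40) and NCAM1 (3.47 ± 0.43) rose. Of 13 tested neuronal genes (15 measured, 20 listed), 0 rose and 4 fell, with a median of -2.61, or -2.36 with bounds. Those that fell were STMN2 (-6.23 ± 0.69), RBFOX3, SLC17A6 and INA, the last lost without ES line 1. Without ES line 3, 1 neuronal gene rose. The proneural factor NEUROD1 had no count in any library.

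**Figure D3:**
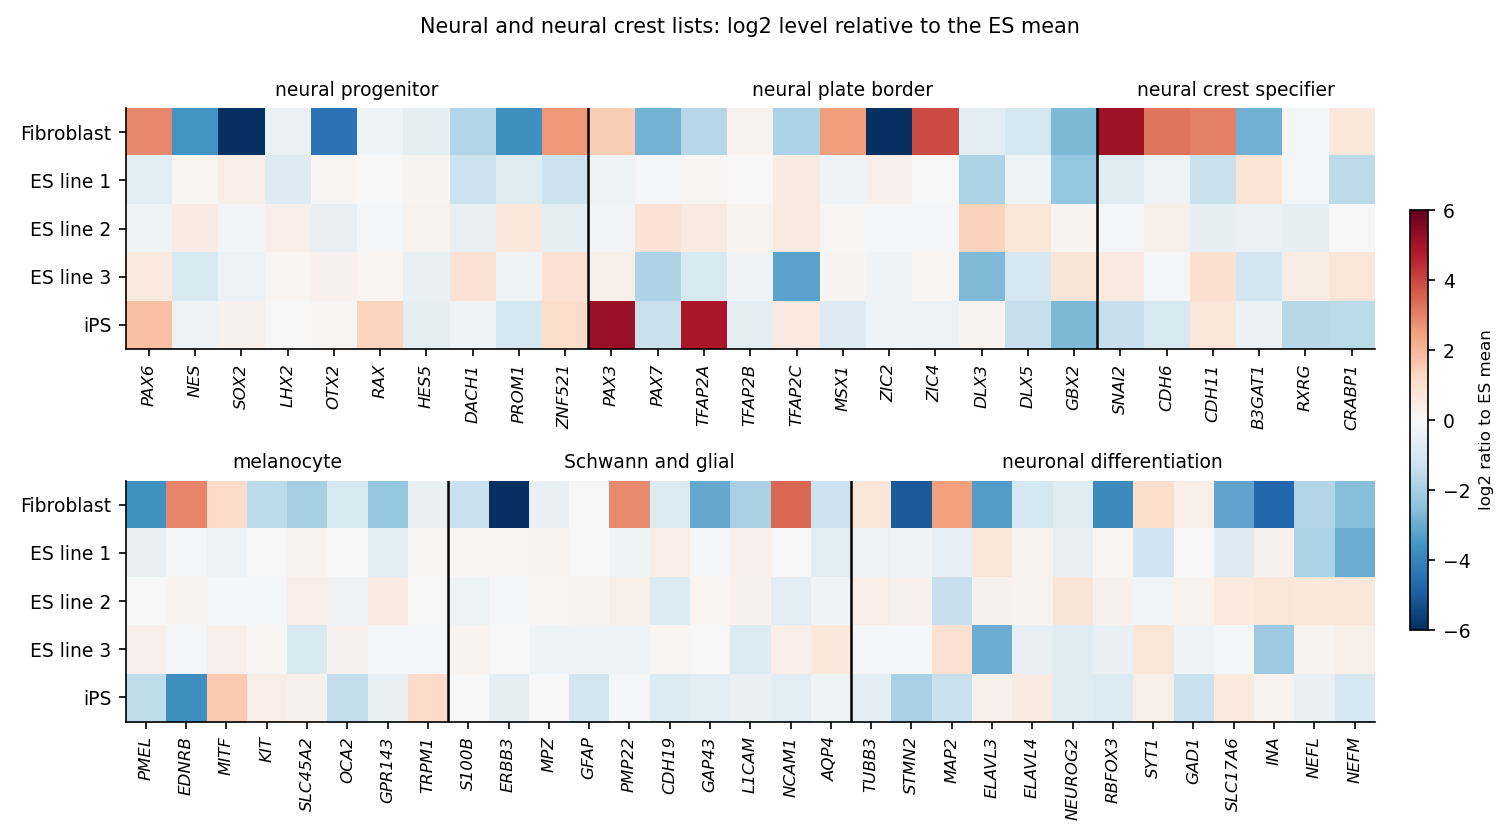
Log2 of the level in each library over the ES mean, with 0.5 CPM added to both, for tested genes of 6 lists (colour scale clipped at -6 and 6). The fibroblast row holds the strongest falls. In the iPS row PAX3 and TFAP2A are the strongest rises and EDNRB the strongest fall.

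Both endothelin receptors, the ligand EDN3 and the ERBB receptors EGFR and ERBB3 differed between fibroblasts and ES lines, while no neuregulin ligand passed. Of 11 tested endothelin and neuregulin genes (12 measured, 15 listed), 4 rose and 2 fell in fibroblasts (median log2 fold change -0.65), the same counts with any ES line left out. Both endothelin receptors rose, EDNRA (3.46 ± 0.51, from 5.03 ± 1.85 to 55.5 CPM) with EDNRB, and so did the ligand EDN3 (5.28 ± 0.74, from 1.06 ± 0.668 to 41.5 CPM). ECE2, an endothelin-converting enzyme, fell (-2.76 ± 0.52), and ECE1 did not pass (-0.65 ± 0.48). In the iPS library EDNRA stood at 3.38 CPM, near the lowest ES line at 3.54 CPM, so EDNRB was the endothelin receptor without a count there.

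Within the ERBB family, EGFR rose in fibroblasts and ERBB3 fell. EGFR stood at 29.1 CPM per kb in fibroblasts, 0.958 on average in the ES lines and 1.34 in the iPS library, and rose in fibroblasts (log2 fold change 4.92 ± 0.38, edgeR adjusted p = 0.00153). ERBB2, the signalling partner of ERBB3, stood at 30.3 CPM per kb in fibroblasts and 40.2 in the iPS library. It stood at 71.4, 80.2 and 26.5 in ES lines 1, 2 and 3 (mean 59.4), so ES line 3 lay below both. ERBB2 did not pass for fibroblasts against ES lines (edgeR adjusted p = 0.329). ERBB4 stood at or below 0.135 CPM per kb in all 5 libraries. NRG1, a ligand of ERBB3, stood at 23.7 CPM in fibroblasts and 7.68 ± 1.498 CPM across the ES lines, a log2 difference of 1.63 ± 0.49 that did not pass (adjusted p = 0.0658).

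**Figure D4:**
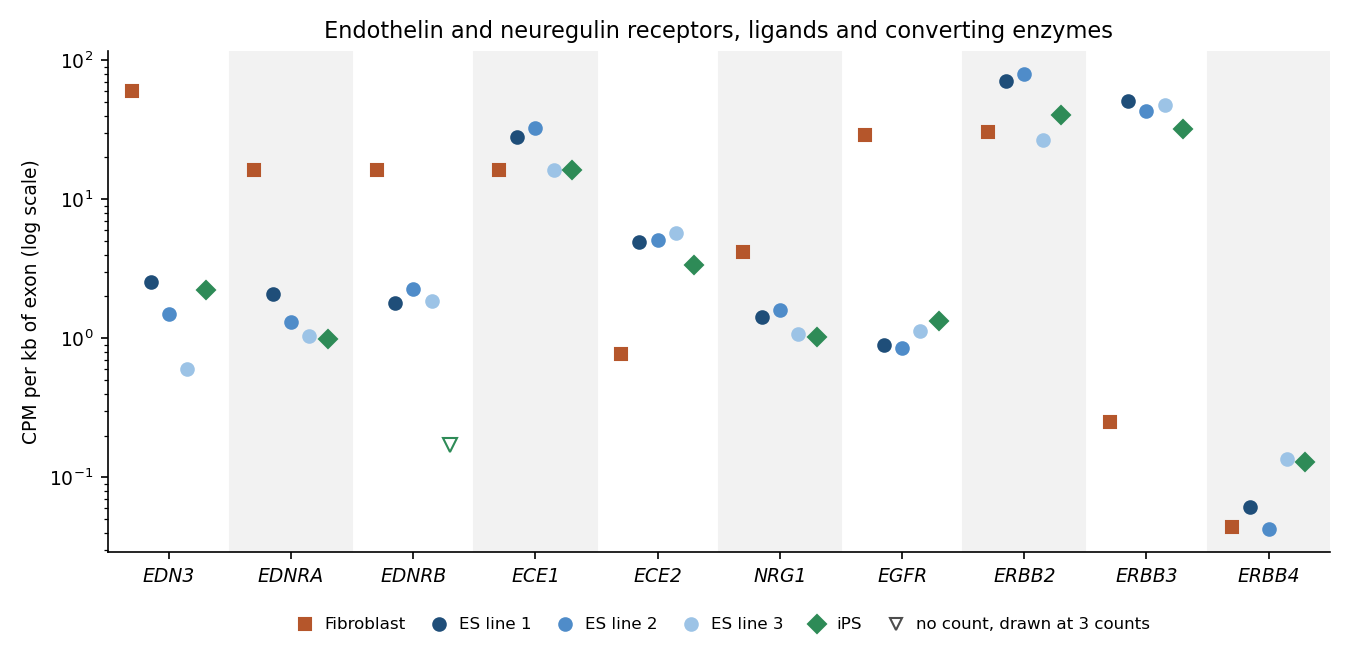
CPM per kb of exon, on a log scale, of endothelin and neuregulin ligands, receptors and converting enzymes in the 5 libraries (symbols as in the plot of the 10 genes). EDN3, EDNRA, EDNRB and EGFR are highest in the fibroblast library, ERBB3 is lowest there, and EDNRB has no count in the iPS library.

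Of 10 tested BMP and WNT genes (11 measured, 19 listed), BMP7 fell in fibroblasts, from 45.1 ± 19.3 CPM across the ES lines down to 0.651 CPM (log2 fold change -6.11 ± 0.80), and stood at 35.0 CPM in iPS cells. The list's median log2 fold change was -0.57. Without ES line 3, 2 of these genes fell and 2 rose, and without ES line 1, 1 fell and 1 rose. WNT3A, with no count in fibroblasts, was at least 13.7-fold lower than the ES mean, or 4.07-fold without ES line 2, and did not pass (edgeR adjusted p = 0.139). The BMP antagonist NOG, with 12.5 CPM in iPS cells, 13.8 CPM in fibroblasts and 2.89 to 6.22 CPM across the ES lines, did not pass. Neither did the receptor BMPR2, at 123 CPM in iPS cells, 117 CPM in fibroblasts and 33.3 to 59.9 CPM across the ES lines.

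In the iPS library, 0 of the 80 tested genes of these 8 lists passed against the ES lines in the edgeR quasi-likelihood test. Over all genes the share was 0.109%. Before adjustment 7 higher and 9 lower had p under 0.05 (8.69% of all genes in either direction), and limma voom called 0. DESeq2 called TFAP2A, PAX3, EDNRB and STMN2 (2.76% of all genes). List medians ran from -1.30 to -0.07 on the log2 scale, beside -0.11 for all genes. With genes lacking an iPS count set at their bound, they ran from -1.05 to 0.00029. Genes whose ES level was under the iPS floor have no bound and were left out of those medians. For the plate border list 9 of 12 genes remained, and its median moved from -1.01 to -0.26. Markers of other cells were read beside the high TFAP2A and PAX3 of that library. Of 13 fibroblast markers, COL1A2 and PRRX1 rose there, COL1A1, COL3A1, TWIST2 and FBN1 also lay above every ES line, and DCN, PDGFRA, COL5A1 and PDGFRB lay below every ES line. The 5 epithelial markers summed to 1592 CPM, within the ES range of 1194 to 1962 CPM. CDH1, EPCAM and CLDN7 each lay within the ES range, and CLDN4 (76.9 CPM) and ESRP1 (172 CPM) lay below every ES line. KRT7, the only measured trophoblast and amnion marker of 7, stood at 68.8 CPM against 11.8 to 241 CPM across the ES lines. The 6 endothelial markers summed to 247 CPM, below the ES range of 307 to 455 CPM. The 4 blood markers summed to 35.3 CPM against 8.21 to 15.96 CPM. RUNX1 gave 25.2 CPM of that sum and CD34 9.80 CPM, both above every ES line, while SPI1 lay below every ES line. PTPRC was at 0, but its ES mean of 0.080 CPM was also under the iPS floor of 0.507 CPM. The 5 muscle markers, relevant because PAX3 also marks muscle precursors, summed to 20.8 CPM against 12.7 to 126 CPM. ACTA1 gave 19.1 CPM of the iPS sum, and 125.5 CPM in ES line 2. TTN at 1.35 CPM lay above every ES line, as did MYOG at 0.338 CPM, which is under the iPS floor of 0.507 CPM. MYOD1 and MYF5 were at 0, but their ES means of 0.066 and 0.019 CPM were also under that floor. Mesoderm markers summed to 45.5 CPM against 23.6 to 134 CPM. TBXT gave 38.7 CPM of it, MIXL1 and EOMES lay below every ES line and TBX6 lay within the ES range. MESP1 was at 0, but its ES mean of 0.069 CPM was also under the iPS floor. Endoderm markers summed to 26.2 CPM, below the ES range of 43.8 to 149 CPM. The part of other cells in the TFAP2A and PAX3 values was not tested.

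Genes with the most similar pattern were found by the Euclidean distance between centred log2 CPM over the 5 libraries, among 9366 genes with a symbol and at least 5 CPM in a library. Nearest to TFAP2A were CXCL12, a stromal chemokine (distance 0.83), at 388 CPM in iPS cells and 5.53 to 14.1 CPM across the ES lines, and ART3 (1.08). Nearest to PAX6 were PLCL2 (0.22) and RUNX1 (0.48), a blood and mesenchymal factor at 46.7 CPM in fibroblasts, 25.2 CPM in iPS cells and 2.91 to 6.93 CPM across the ES lines. PAX3 had no close match, with HP at 1.53 and ANGPT1 at 1.59, and neither had EDNRB, with HOXB4 at 1.73 and MARVELD1 at 1.82. For MSX1 they were NAALADL2 (0.68) and the growth factor IGF2 (0.78). Those of ERBB3 were FREM2 (0.24) and UGT8 (0.29), of ZIC2 SOX13 (0.37) and F11R (0.40), and of NES SLC7A10 (0.37) and TYRO3 (0.44). PMEL had SLCO4A1 (0.56) and VWF (0.57), and S100B had PRTG (0.24) and TNMD (0.37). Among the 10 genes themselves ZIC2 and ERBB3 were the closest pair (0.56). These distances rest on 5 libraries of which 3 are ES lines, so they mainly order genes by their fibroblast and iPS values.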

How the data were processed

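Raw read counts (whole numbers) are what the authors deposited, once as a joint table and once per library, with 0 differences between the copies. Per the submitters' processing notes the tools were featureCounts 1.5.2, STAR 2.5.3a and Trim Galore 0.4.0. The build and the settings for strand and multi-mapping reads were not given in the sources used here. Of 30811 identifiers 12660 (41.1%) had a symbol in the table of gene names, so lists are described by measured members (144 of 204 entries).

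Tests used edgeR 4.0.16 under R 4.3.3 (filterByExpr on the 3 groups, which kept 17462 genes, TMM factors from 0.813 to 1.07, estimateDisp, glmQLFit and glmQLFTest with all 5 libraries in 1 fit and 2 residual degrees of freedom). Benjamini-Hochberg adjustment ran over every gene tested, and a call needed an adjusted p under 0.05. The common biological coefficient of variation was 0.458. The SE is the fold change divided by the root of F. Groups without a count have bounds against 3 counts, over the library. Exact 95% Poisson and ratio intervals, and floors, describe counting error only: without molecular identifiers, reads are not independent molecules. Alternatives were DESeq2 1.42.0, limma voom 3.58.1, other scalings, other filters, thinning to the shallowest total, each ES line left out and, chosen after seeing the data, each lone library left out. The steps were tested on simulated counts. All 5 simulated libraries had the same spread, so that does not check whether the lone libraries vary like an ES line.

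The members and lists were chosen with earlier results of these data known. Named are the 10 members, up to 4 called genes of each list and comparison, genes with no count in a library and the 2 nearest genes by pattern. Other list and marker genes named without a call, such as TFAP2C, PAX7, MITF, NOG, OCA2 and BMPR2, were chosen after their values were seen. No labels give a batch. Some list genes were counted but are not reported by name here.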

Additional observations from a re-analysis of the deposited data

How the results depend on the processing

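No paired analysis was possible because only the ES group holds more than 1 library and the groups share fewer than 2 replicate numbers. Of 344 alternative values of the members' fold changes, 285 kept direction and call, 18 lost a call, 38 gained one and 3 changed sign. Members called in fibroblasts against ES lines ranged from 4 to 9 with an ES line left out, out of 8 with all libraries, and all genes called from 1742 to 4550, with 4747 for DESeq2. In iPS against ES, members called rose from 0 to 2 with upper-quartile factors, with a minimum of 1 CPM in a group or without the fibroblast library. The number was 3 with no low-count filter, with DESeq2 or after thinning, and 0 to 3 with an ES line left out. All genes called there, 19 with the main settings, were 204 with no filter, 416 with DESeq2, 5 with limma voom, 94 after thinning and 0 to 268 with an ES line left out. In iPS against fibroblast, where 2213 genes and 6 members were called, DESeq2 gave 4248 genes, limma voom 169 genes and 3 members, and leaving out an ES line 1076 to 3905 genes and 4 to 8 members. With total counts alone that split moved from 1342 higher and 871 lower to 1636 and 615. Signs changed for some fold changes of iPS against ES. S100B was -0.0041 with total counts alone, and PMP22 was 0.0090 after thinning. With an ES line left out, the log2 values ran from -0.60 to 0.046 for NES, -0.16 to 0.22 for S100B, -0.21 to 0.15 for PMP22, -0.79 to 0.38 for B3GAT1, -0.23 to 0.76 for INA, -0.14 to 0.24 for OTX2 and -0.59 to 0.026 for BMP7. The cause of these changes was not tested. The iPS library's depth limits what can be said of MSX1, S100B and PAX6 there.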
